A study of Mus musculus with 15 samples.

Results

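The GIMAP genes (GTPases of the immunity-associated protein family) were followed here across the iNKT cells of 4 mouse tissues. The members were taken by gene symbol: all 8 genes with the symbols Gimap1, Gimap3, Gimap4, Gimap5, Gimap6, Gimap7, Gimap8 and Gimap9 were taken, out of 48795 genes in the expression tables, and all 8 passed the filter on low counts that left 13600 genes for testing. The libraries were bulk RNAseq of invariant natural killer T (iNKT) cells, T cells with a restricted T cell receptor that sees lipids on CD1d, sorted as CD1d tetramer+ TCRβ+ cells that lacked B220, CD11b, CD11c and CD8. They came from untreated 6-week-old wild-type C57BL/6 mice, with 4 samples from thymus, 4 from spleen, 4 from mesenteric lymph node (mLN) and 3 from inguinal lymph node (iLN), and inguinal replicate 1 was not analysed here. Batch 1 held 8 of these samples, with each replicate 3 and 4, and batch 2 held 7, with each replicate 1 and 2. The lymph nodes were digested with enzymes while spleen and thymus were pressed through a mesh, so that in a comparison of a lymph node with spleen or thymus the tissue and the way its cells were freed cannot be told apart, while thymus and spleen, and iLN and mLN, were each freed in the same way. The sources do not say whether a replicate was 1 mouse or a pool, so p-values measure the spread between these samples, and in bulk RNA fewer cells of a type and less RNA per cell cannot be told apart.

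GIMAP proteins are small GTPases that share a domain first described in a plant protein induced by infection and that are expressed mainly in lymphocytes and other blood cells. They sit on or near intracellular membranes and are best known for keeping lymphocytes alive: animals without Gimap1 or Gimap5 have few peripheral T cells. In mice the genes form a single cluster, and the RNA of several members is known to rise as T cells mature in the thymus.

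The cluster lay on chr6:48647234-48770851 (GRCm38, GENCODE vM21), a stretch of 123618 bp in which the members followed each other in the order Gimap8, Gimap9, Gimap4, Gimap6, Gimap7, Gimap1, Gimap5 and Gimap3. On this stretch 6 members were on the plus strand, and the other 2, Gimap6 and Gimap3, on the minus strand. Neighbouring members overlap other transcripts. The readthrough gene Gm28053 covers exons of Gimap1 and Gimap5 and the span of Gimap7 on the same strand, and the antisense gene Gimap1os overlaps Gimap1 over 2391 bp. Transcripts of Gimap3 and Gimap5 shared 41 stretches of 100 bases, about the length of 1 read, which were 1.65% of those of Gimap3 and 0.966% of those of Gimap5. Where fragments align to more than one gene the counting program divides them, and the counts of Gimap1 were not whole in 14 samples and those of Gimap3 and of Gimap5 in 12 samples each, those of Gimap6 in 9 and those of Gimap8 in 7, so part of their counts is uncertain. The counts of Gimap4, Gimap7 and Gimap9 were whole (within 1e-06) in every sample.

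The libraries held between 1152702 and 8670570 expected counts, with thymus replicate 2 the smallest, and genes over ribosomal RNA took from 18.8% to 48.1% of them. CPM, counts scaled to the library size and normalised by TMM, served to compare 1 gene between samples, and TPM, transcript abundances that take gene length into account, to compare genes within a sample. The T and iNKT cell markers summed to between 1849 and 3469 CPM in every sample, all 7 of them above 0 in each tissue. Spleen replicate 1 stood apart, with the lowest sum of these markers (1849 CPM) and the highest sum of B cell markers, 147 CPM against at most 23.0 CPM in the other 14 samples. Without it 2 GIMAP genes were called in thymus against spleen and 4 in iLN against spleen, where all samples gave 3 and 6. Among the spleen samples, replicate 1 had the highest CPM of Gimap3, Gimap5 and Gimap8 and the lowest of Gimap4, Gimap6 and Gimap7. The part of B cells in these levels was not tested. Leaving out other samples lost calls as well. Without spleen replicate 4 the calls of Gimap4 and Gimap6 in thymus against spleen and of Gimap5 and Gimap8 in iLN against spleen were lost. The summed level of B cell markers in the other 3 spleen samples was between 5.69 and 23.0 CPM.

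Per unit of length the family fell into an abundant and a scarce group. Gimap4, Gimap3, Gimap6 and Gimap1 held the first 4 ranks by TPM in every one of the 15 samples, and Gimap7, Gimap5, Gimap8 and Gimap9 the last 4. Gimap4, whose product is linked to T cell death, was the most abundant, with a mean of 657 TPM over all samples and rank 146 among 24368 genes with a TPM above 0. Gimap9, one of the least studied members, had the lowest mean over all samples, 55.4 TPM, with rank 1678. In thymus and iLN, however, Gimap7 was the lowest member in every sample, with 16.6 ± 7.17 TPM in thymus (SD, n = 4) and 29.6 ± 12.3 in iLN (n = 3), where Gimap9 had 47.9 ± 11.9 and 39.9 ± 20.7. The summed TPM of the family was 1969 to 3587 in spleen, 2193 to 2768 in mLN, 1283 to 2014 in thymus and 924 to 1361 in iLN. In deposited TPM every spleen and mLN sample except spleen replicate 3 lay above every thymus sample. All thymus samples except thymus replicate 3 lay above every iLN sample. Deposited TPM counts the ribosomal RNA genes in its total, and these exceptions had the largest shares of them, 48.1% in spleen replicate 3 and 42.1% in thymus replicate 3. Levels of each gene between samples are therefore compared below in CPM.

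**Figure D1:**
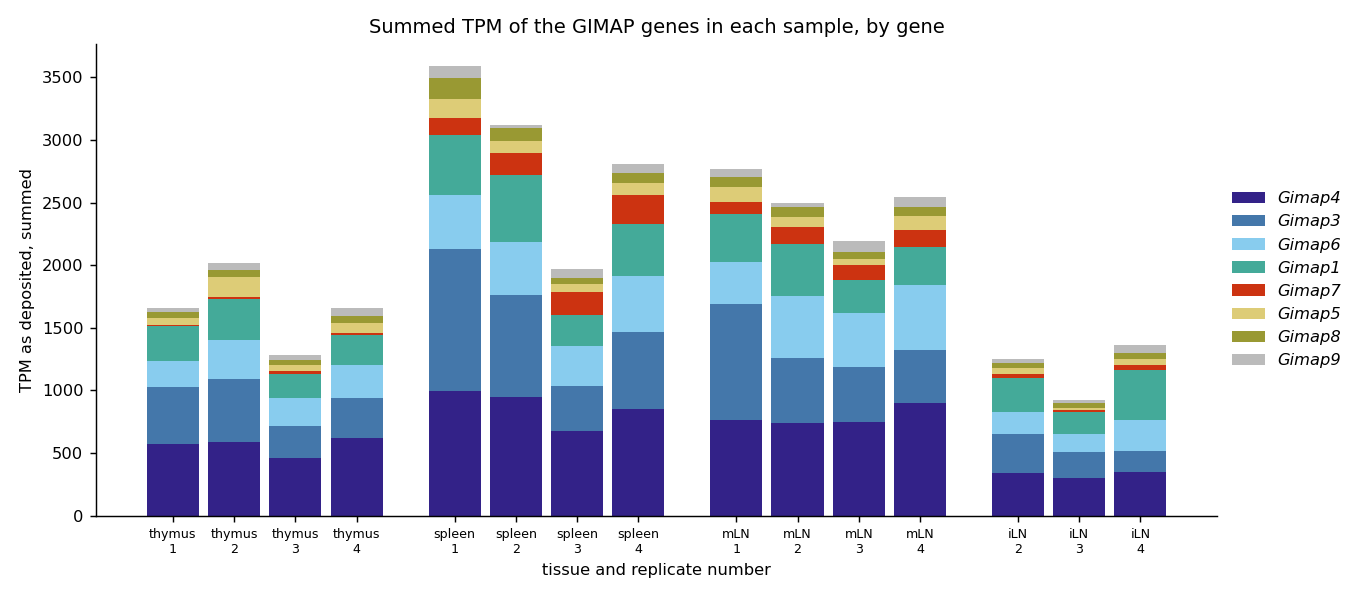
Stacked bars give the summed TPM (as deposited, y axis from 0) of the GIMAP genes in each sample, split by gene, with samples on the x axis by tissue and replicate number. The iLN bars reach 924 to 1361 TPM and the spleen bars 1969 to 3587 TPM, and the red Gimap7 segment is nearly absent in thymus.

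Within the family, the share of Gimap7 separated tissues that the share of Gimap4 did not. Gimap4 made up 34.2% ± 3.51 (SD, n = 4) of the summed TPM in thymus, 30.7% ± 2.74 in spleen (n = 4), 31.7% ± 3.70 in mLN (n = 4) and 28.5% ± 3.70 in iLN (n = 3), and the ranges of all tissues overlapped. Gimap7 made up 6.73% ± 2.43 in spleen (n = 4), 4.98% ± 1.04 in mLN (n = 4), 2.44% ± 0.611 in iLN (n = 3) and 1.05% ± 0.548 in thymus (n = 4). The Gimap7 shares of thymus, 0.428% to 1.59%, did not overlap those of iLN, 1.78% to 2.99%, nor did either overlap the shares of mLN and spleen, which overlapped each other. Gimap1 made up 18.4% to 29.4% in iLN and 11.9% to 17.1% in the other tissues.

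**Figure D2:**
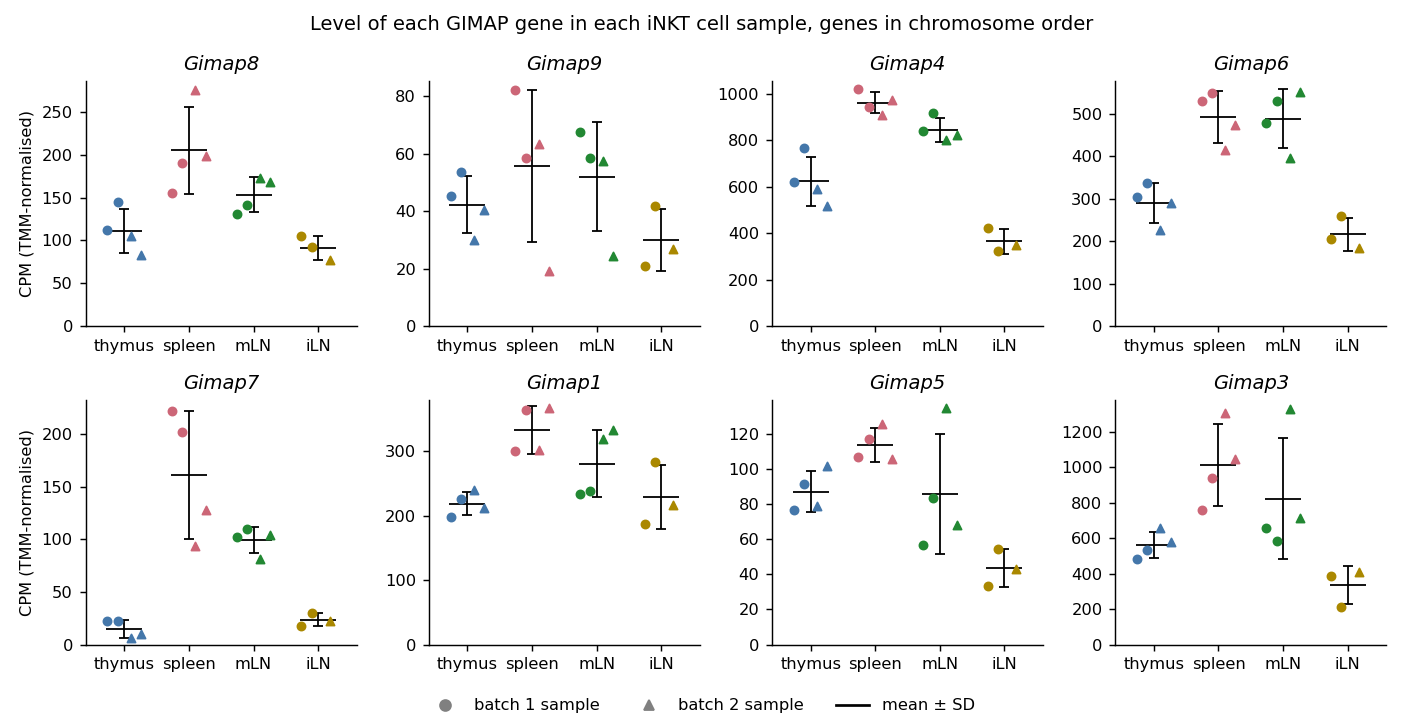
Each panel shows 1 GIMAP gene in chromosome order, with TMM-normalised CPM on the y axis (from 0, scaled per gene) and the 4 tissues on the x axis; points are samples (circles batch 1, triangles batch 2) and black bars the mean ± SD. For Gimap7 the thymus points (5.80 to 22.2 CPM) and iLN points (17.6 to 29.9 CPM) sit far below the spleen and mLN points (81.0 to 222 CPM).

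Gimap7, whose product is known to pair with other GIMAP proteins and stimulate their GTPase activity, differed most between tissues. In spleen it was measured at 94.1, 128, 222 and 202 CPM in replicates 1 to 4, and in mLN at 81.0, 104, 102 and 110 CPM. In thymus it was at 5.80, 9.56, 22.0 and 22.2 CPM in replicates 1 to 4, and in iLN at 22.6, 17.6 and 29.9 CPM in replicates 2 to 4. All thymus and iLN samples were thus below all spleen and mLN samples, and the thymus and iLN samples overlapped. The thymus values rest on few reads, with 13 to 117 expected counts per sample. In edgeR's quasi-likelihood test Gimap7 was 11.2-fold lower in thymus than in spleen (log2 fold change −3.49, SE 0.30, adjusted p = 6.18e-07) and 6.97-fold lower in iLN than in spleen (log2 fold change −2.80, SE 0.32, adjusted p = 2.8e-05). It was 7.34-fold higher in mLN than in thymus (adjusted p = 9.05e-06, edgeR) and 4.56-fold lower in iLN than in mLN (adjusted p = 0.000608, edgeR). The change between iLN and thymus, 0.69 ± 0.31 (log2 fold change ± SE), did not pass (adjusted p = 0.264, edgeR). Within batches the log2 fold change of thymus against spleen was −3.27 in batch 1 and −3.96 in batch 2, and that of iLN against spleen −3.16 and −2.31. The 4 samples with replicate 1 or 2 in thymus and spleen, all of batch 2, were below the batch 1 samples of the same tissue.

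Upstream stretches of Gimap7 and of Gimap4 and Gimap3, the pair whose levels were most alike across samples once batch was removed, are shown because the members differed together between tissues. They run 5′ to 3′ on the strand of the gene (RefSeq, GRCm38.p6) and end where the gene's first annotated base, in RefSeq or GENCODE, follows. Capitals mark the letters of 5 motifs on either strand: ETS (AGGAAG), RUNX (TGTGGT, which reads ACCACA on the other strand), T-box (GTGTGA, or TCACAC), KLF (CCACCC, or GGGTGG) and FOXO (GTAAACA). No marked motifs overlap each other.
Gimap7, chr6:48718371-48718620, plus strand: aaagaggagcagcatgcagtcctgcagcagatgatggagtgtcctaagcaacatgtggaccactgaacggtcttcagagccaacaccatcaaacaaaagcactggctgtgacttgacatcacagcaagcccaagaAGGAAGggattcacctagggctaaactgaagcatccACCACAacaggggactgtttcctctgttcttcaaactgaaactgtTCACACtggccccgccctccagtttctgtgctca
Gimap4, chr6:48684328-48684548, plus strand: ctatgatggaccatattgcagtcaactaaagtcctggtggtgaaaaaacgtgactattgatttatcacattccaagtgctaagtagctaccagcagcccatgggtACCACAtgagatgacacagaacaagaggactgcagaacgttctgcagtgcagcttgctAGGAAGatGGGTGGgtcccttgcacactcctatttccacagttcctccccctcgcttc
Gimap3, chr6:48770852-48771101, minus strand: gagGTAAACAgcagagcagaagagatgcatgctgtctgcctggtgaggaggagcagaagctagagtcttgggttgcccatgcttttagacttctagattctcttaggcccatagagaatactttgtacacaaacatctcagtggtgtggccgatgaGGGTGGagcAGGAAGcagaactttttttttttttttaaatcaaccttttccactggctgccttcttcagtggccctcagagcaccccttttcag

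All 8 members had an entry in the RefSeq promoter table, and Gimap8 had more than 1. Over the 250 bases before the start, 7 of the 8 members held the ETS letters, which were in 29.5% of the 32851 promoters of this length. The KLF letters were in 5 members and 28.1% of promoters, the RUNX letters in 3 members (Gimap1, Gimap4 and Gimap7) and 14.0%, and the T-box letters in 2 members (Gimap7 and Gimap8) and 12.3%. The FOXO letters were in 1 member, Gimap3, and 3.17% of promoters, and the TCF/LEF letters (CTTTGA) in 0 members and 13.8%. A member was counted if any of its entries matched, while the percentages are per entry. The ETS and KLF matches of Gimap8 and the KLF match of Gimap9 lay at or past the gene's first base in GENCODE. These are matches of letters only.

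Comparisons were made between each pair of tissues, and a gene was called at an adjusted p under 0.01 with a fold change over 1.5. Those against spleen share the spleen samples, and the comparisons that share any tissue are likewise not independent. In thymus against spleen 3 of the 8 members were called lower, Gimap4, Gimap6 and Gimap7, beside 0.537% of all genes called lower and 1.32% called in either direction. In iLN against spleen 6 were called lower, all but Gimap1 and Gimap9, beside 0.588% lower and 1.55% in either direction. In mLN against spleen 0 were called by edgeR and 0 by DESeq2, with 2 members (Gimap7 and Gimap8) at an unadjusted p under 0.05 beside 12.2% of all genes, and 0.654% of all genes were called. Of the comparisons without spleen, that of mLN with thymus had 2 members called higher (Gimap6 and Gimap7), beside 0.816% of all genes called higher and 1.6% in either direction. In iLN against thymus 1 was called lower (Gimap4; 0.625% of genes lower and 1.5% either way), and in iLN against mLN 4 were called lower (Gimap3, Gimap4, Gimap6 and Gimap7; 0.154% lower and 0.471% either way).

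All 8 estimates were below 0 in thymus against spleen and in iLN against spleen. The median log2 fold change of the members was −0.70 in thymus against spleen, where the median of all genes tested was −0.01, and −1.29 in iLN against spleen, where it was 0.01. It was −1.05 in iLN against mLN and −0.51 in iLN against thymus, and 0.45 in mLN against thymus, where all genes had medians between −0.00 and 0.03. In mLN against spleen it was −0.29. Every iLN sample was below every spleen sample for 7 members, as was the case for 6.89% of all genes, and every thymus sample was below every spleen sample for 7 members and 4.24% of genes. Every iLN sample was below every mLN sample for 6 members (4.01% of genes) and below every thymus sample for 3 (7.15%). Every mLN sample was above every thymus sample for 3 members (3.82%), while mLN and spleen overlapped for all 8; of all genes 3.15% were lower and 3.04% higher in every mLN sample. Tested over the 4 tissues together, 5 members (Gimap3, Gimap4, Gimap6, Gimap7 and Gimap8) had an adjusted p under 0.01 in edgeR, as did 3.38% of all genes.

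**Figure D3:**
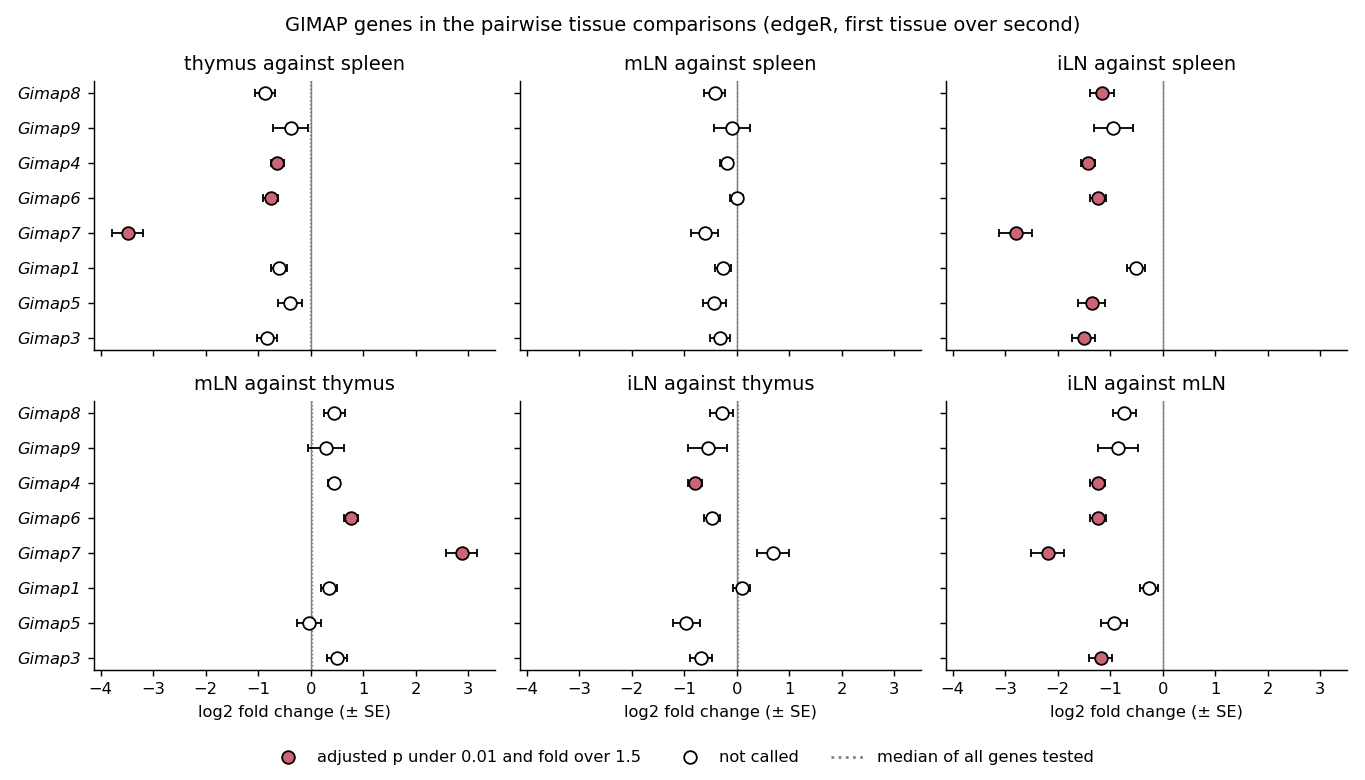
Each panel is 1 comparison of tissues, with the log2 fold change (first tissue over second; bars are ± SE from edgeR) on the x axis and the GIMAP genes in chromosome order on the y axis; red points were called, white points were not, and the dotted line is the median of all genes tested. In iLN against spleen all 8 points lie left of 0 and 6 are red, in mLN against spleen none is red, and Gimap7 lies farthest from 0 in both comparisons of the thymus with spleen and with mLN.

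The members tied to lymphocyte survival were Gimap1, Gimap3 and Gimap5. Gimap5, whose loss in mice and rats leads to T cell lymphopenia, was at 126, 106, 107 and 117 CPM in spleen replicates 1 to 4 and at 43.2, 33.1 and 54.4 CPM in iLN replicates 2 to 4. It was at 76.6 to 101 CPM in thymus and 56.8 to 134 CPM in mLN, so that iLN lay below all samples of the other tissues, and the mLN samples overlapped those of both spleen and thymus. The difference of iLN from spleen passed (2.55-fold lower, adjusted p = 0.00467, edgeR), and that of iLN from thymus did not (1.94-fold lower, adjusted p = 0.0451, edgeR). Its call in iLN against spleen was lost without spleen replicate 1, 3 or 4 or iLN replicate 2 or 3, with adjusted p over all alternatives up to 0.334.

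Gimap3, a close relative of Gimap5 whose product is found in the membranes of the endoplasmic reticulum, was at 1308, 1048, 758 and 938 CPM in spleen replicates 1 to 4 and at 409, 389 and 213 CPM in iLN replicates 2 to 4. Its mLN samples were at 1327, 716, 658 and 586 CPM, and its thymus samples at 656, 578, 484 and 536 CPM. Spleen and iLN did not overlap, and mLN replicate 1 alone lay at the level of the highest spleen sample. It was 2.84-fold lower in iLN than in spleen (adjusted p = 0.000389, edgeR) and 2.27-fold lower in iLN than in mLN (adjusted p = 0.00671, edgeR). The latter call was lost without any 1 thymus sample, spleen replicate 4, mLN replicate 1, 3 or 4, or iLN replicate 2 or 4. In thymus against spleen its log2 fold change was −0.83 ± 0.19 (SE), with adjusted p = 0.0214 in edgeR. With Gimap3 and Gimap5 summed into 1 gene, the log2 fold change was −1.49 in iLN against spleen and −1.15 in iLN against mLN.

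Gimap1, which mature B and T cells need to persist, was at 301 to 368 CPM in spleen, 234 to 333 CPM in mLN, 187 to 284 CPM in iLN and 199 to 239 CPM in thymus. Thymus and iLN each lay below all spleen samples, and mLN overlapped all other tissues, but none of its pairwise changes was called by edgeR. The largest was thymus against spleen, with a log2 fold change of −0.61 ± 0.16 (SE) and adjusted p = 0.0414 (edgeR). The antisense Gimap1os was called lower in thymus than in spleen (log2 fold change −1.11, adjusted p = 0.000442, edgeR) and in iLN than in spleen (−1.10, adjusted p = 0.00129, edgeR). Its levels were 110 ± 6.53 CPM in thymus (SD, n = 4), 238 ± 44.2 in spleen (n = 4), 160 ± 11.8 in mLN (n = 4) and 109 ± 26.3 in iLN (n = 3). If the counting did not use strand, which is not given in the sources used here, reads of Gimap1 and Gimap1os cannot be told apart where they overlap.

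Gimap4, whose product speeds the death of T cells once apoptosis has begun, had ranges of its own in thymus and in iLN. It was at 912, 974, 1021 and 944 CPM in spleen replicates 1 to 4, at 802, 824, 839 and 920 CPM in mLN, at 592, 516, 619 and 766 CPM in thymus, and at 349, 423 and 322 CPM in iLN replicates 2 to 4. The 4 spleen samples and the mLN samples touched only through mLN replicate 4, and the highest iLN sample was below the lowest thymus sample. It was 2.69-fold lower in iLN than in spleen (log2 fold change −1.43, SE 0.14, adjusted p = 9.29e-06, edgeR) and 2.36-fold lower in iLN than in mLN (adjusted p = 6.21e-05, edgeR). Against thymus it was 1.73-fold lower in iLN (adjusted p = 0.0017, edgeR), a call lost without thymus replicate 4. Thymus was 1.55-fold lower than spleen (adjusted p = 0.00524, edgeR), close to the fold threshold, and that call was lost when spleen replicate 1, 2, 3 or 4 or thymus replicate 1, 2 or 3 was left out. It was also lost with no batch covariate and with the replicate block in place of batch (adjusted p = 0.0114, edgeR), and over all alternatives the adjusted p reached 0.512.

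Gimap6, whose product binds the ATG8-like protein GABARAPL2 and is linked to autophagy, separated spleen and mLN from thymus and iLN. It was at 414, 473, 531 and 548 CPM in spleen replicates 1 to 4 and at 395, 551, 479 and 529 CPM in mLN, against 227, 290, 304 and 338 CPM in thymus and 183, 205 and 259 CPM in iLN replicates 2 to 4. Every spleen and mLN sample lay above every thymus and iLN sample, and spleen and mLN overlapped fully, with a log2 fold change of 0.00 ± 0.13 (SE). It was 2.34-fold lower in iLN than in spleen (adjusted p = 8.4e-05, edgeR) and than in mLN (adjusted p = 0.000192, edgeR). Thymus was below spleen by a log2 fold change of −0.76 (SE 0.14, adjusted p = 0.0031, edgeR) and below mLN by nearly the same amount, 0.76 for mLN over thymus (SE 0.14, adjusted p = 0.00285, edgeR). Of these, the thymus and spleen call was lost without thymus replicate 1 or 3 or spleen replicate 2 or 4, and the mLN and thymus call without thymus replicate 1 or 3 or mLN replicate 2 or 4.

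Gimap8, the longest member, which carries repeated GTPase domains, was at 276, 199, 155 and 190 CPM in spleen replicates 1 to 4 and at 77.5, 105 and 91.8 CPM in iLN replicates 2 to 4. It was at 131 to 173 CPM in mLN and 83.1 to 145 CPM in thymus, so that iLN lay below all spleen and mLN samples and overlapped thymus. It was 2.23-fold lower in iLN than in spleen (adjusted p = 0.00483, edgeR), with log2 fold changes of −0.83 in batch 1 and −1.64 in batch 2, and this call was lost without spleen replicate 1 or 4 or iLN replicate 2 or 4. In thymus against spleen it was −0.87 ± 0.20 (log2 fold change ± SE) with adjusted p = 0.0189 in edgeR.

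Gimap9 was called in no comparison by edgeR. It ranged from 19.1 to 82.0 CPM in spleen, 24.4 to 67.6 in mLN, 29.9 to 53.5 in thymus and 20.9 to 41.7 in iLN, and each tissue overlapped each other one. Its lowest values in spleen and in mLN were both those of replicate 2. The difference of iLN from spleen was −0.94 ± 0.37 (log2 fold change ± SE; adjusted p = 0.201, edgeR).

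With both lymph nodes set against spleen and thymus, 0 members were called by edgeR and 1 by DESeq2, 5 had an unadjusted p under 0.05 beside 17.6% of all genes, and 1.72% of all genes were called. In that comparison Gimap4 had a log2 fold change of −0.49 with adjusted p = 0.00301 (edgeR) but a fold under 1.5. The lymph nodes were not alike for these genes: iLN was lower than mLN for 4 of the 8 members, as given above.

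Across the 15 samples the members tended to be high and low together. With batch removed, the 28 pairs of members had Pearson's r (log2 CPM) from 0.25 to 0.92 with a median of 0.71, highest for Gimap3 with Gimap4 (0.92) and Gimap4 with Gimap6 (0.90). These r describe 15 samples that share libraries, depth and tissue. With tissue removed as well, a step added after seeing the data, r was between −0.69 and 0.62 with a median of 0.06, and 15 of the 28 pairs were above 0. Removing the tissue means took away most of the likeness between members.

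**Figure D4:**
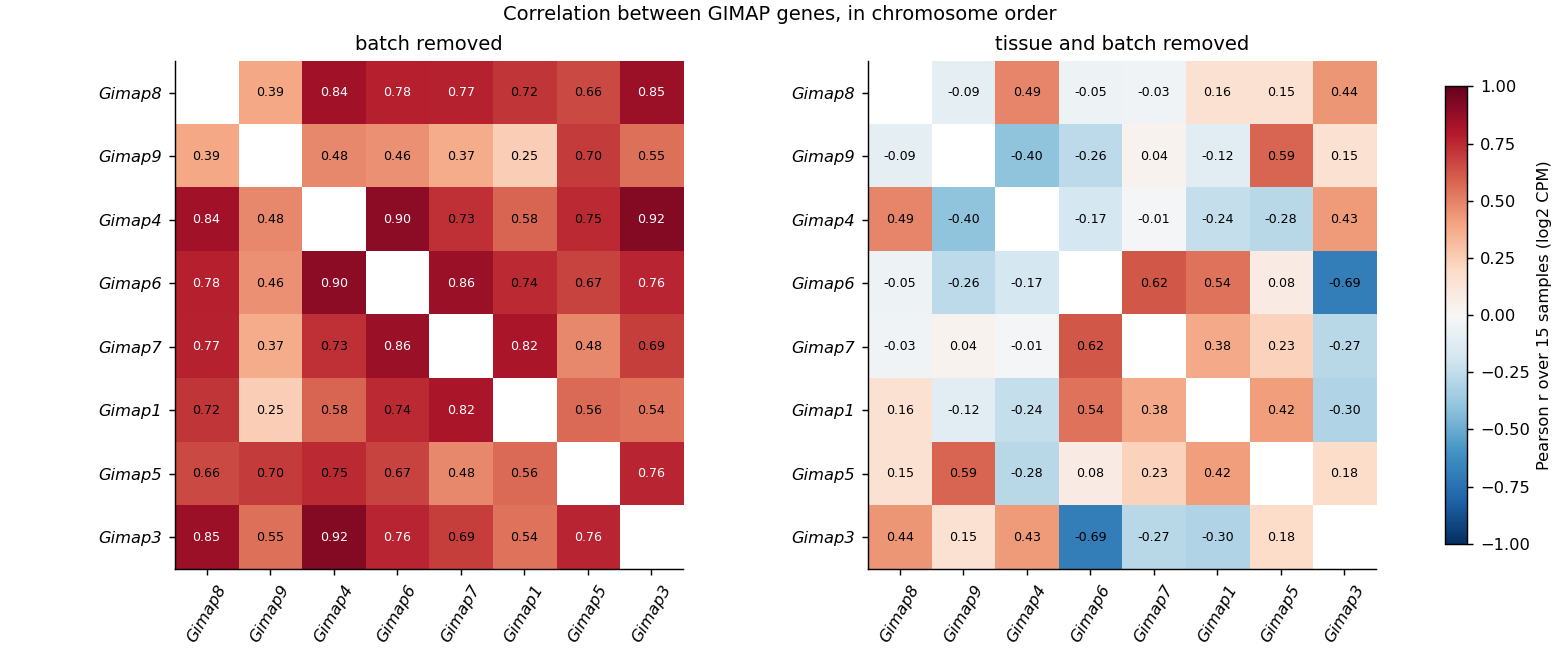
Both heat maps give Pearson's r of log2 CPM between GIMAP genes over 15 samples, genes on both axes in chromosome order, with batch removed on the left and tissue and batch removed on the right. The left map is red throughout (0.25 to 0.92) and the right map holds both signs (−0.69 to 0.62).

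Among the genes most like the mean of the standardised GIMAP levels, with batch removed and over 15 samples, were Atp8a2 (a phospholipid flippase; r = 0.96), Cd200r4 (a CD200 receptor family member; 0.93), Soat2 (a cholesterol esterifying enzyme; 0.92), Ifng (interferon gamma; 0.91) and Ankmy1 (0.91). Atp8a2 was at 171 ± 19.5 CPM over the 4 spleen samples (± SD), 125 ± 44.2 over the mLN samples (n = 4), 61.3 ± 9.02 in thymus (n = 4) and 38.2 ± 21.5 in iLN (n = 3). Cd200r4, Soat2, Ifng and Ankmy1 were scarcer, with means between 0.432 and 20.4 CPM. Ifng is also on the list of NKT1-like markers.

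No gene tested beside the cluster was called lower in iLN or thymus than in spleen. Of the 20 annotated genes nearest to it, 10 on either side, 8 passed the filter, and 2 were called in any pairwise comparison, Tmem176a and Tmem176b, neighbours of each other on the far side of Gimap3 that encode related membrane proteins. Both were called higher in iLN, where the GIMAP genes were low. Tmem176a was at 40.4 to 142 CPM in iLN against 5.63 to 13.7 CPM in spleen (log2 fold change 3.34, adjusted p = 0.00112, edgeR) and 0.735 to 11.0 CPM in thymus. Tmem176b was at 27.8 to 59.7 CPM in iLN against 1.95 to 14.2 CPM in spleen (log2 fold change 2.66, adjusted p = 0.00407, edgeR). Both are also on the list of NKT17-like markers.

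Among genes that GIMAP proteins are known to work with, Bcl2 stood out. In the BCL2 family of death regulators, with 10 of 11 genes tested, Bcl2, which blocks apoptosis, was the 1 gene called in any comparison. It was at 376 ± 71.7 CPM in thymus (SD, n = 4), 199 ± 31.9 in spleen (n = 4), 206 ± 70.9 in mLN (n = 4) and 134 ± 18.9 in iLN (n = 3). It was thus higher in thymus than in spleen (log2 fold change 0.92, edgeR), where Gimap4, Gimap6 and Gimap7 were lower. Against thymus it was lower in iLN (−1.41, edgeR), where Gimap4 was called lower too. It was also lower in mLN than in thymus (−0.88, edgeR), where Gimap6 and Gimap7 were called higher. With both lymph nodes set against spleen and thymus Bcl2 was called lower as well (−0.68, edgeR). Of the ATG8 and autophagy genes, 7 of 8 were tested, and 0 were called by edgeR or by DESeq2 in any comparison, with at most 1 at an unadjusted p under 0.05. Of the GSK3 and beta-catenin genes all 6 were tested and 0 were called by edgeR, with at most 2 at an unadjusted p under 0.05, while DESeq2 called 1 over the 4 tissues together. Of 13 other immune GTPases induced by interferon (the IRG and GBP families and Gvin1), Gbp8 was called lower in iLN than in spleen (−2.10, edgeR) and than in thymus (−1.86), and Gbp4 lower in mLN than in spleen (−0.75). The other 11 were called in no pairwise comparison by edgeR.

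Of the genes of T cell maturation and recirculation all 12 were tested. In mLN against spleen 2 were called higher by edgeR, Ccr7 (a lymph node homing receptor; log2 fold change 2.46) and Tcf7 (a transcription factor of the Wnt pathway; 1.47). In iLN against spleen 3 were called higher and 1 lower, with Tcf7 (log2 fold change 1.62), Il7r (the interleukin 7 receptor; 1.47) and S1pr1 (the receptor that guides exit from tissues; 1.33) higher and Ccr9 (a gut homing receptor; −2.28) lower, all by edgeR. In thymus against spleen Ccr9 was called lower (−2.28), and in mLN against thymus 7 were called higher, among them Ccr9 (3.15) and Ccr7 (2.64). The mean level of Ccr9 was 336 ± 103 CPM in mLN (SD, n = 4), 178 ± 36.3 in spleen (n = 4) and 41.2 ± 25.0 in thymus (n = 4), and in iLN it was called lower than in mLN (log2 fold change −3.15, edgeR), so that like Gimap7 it was low in thymus and iLN.

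Markers of iNKT subsets differed between the same tissues. NKT17-like markers summed to 433 to 864 CPM in iLN, 66.6 to 108 in mLN, 26.1 to 45.1 in spleen and 23.9 to 44.3 in thymus, and 7 of the 9 tested were called higher in iLN than in spleen by edgeR, with Ccr6 (log2 fold change 6.82), Il23r (6.08), Sdc1 (5.97) and Il1r1 (5.04) the largest. NKT1-like markers summed to 1203 to 1913 CPM in iLN, 1306 to 1742 in mLN, 1776 to 3189 in spleen and 2364 to 3358 in thymus, and 4 of the 10 were called lower in iLN than in spleen, with Ccl5 (−2.46) and Klrd1 (−2.24) the largest. NKT2-like markers summed to 1185 to 1484 CPM in iLN, 857 to 1003 in mLN, 646 to 815 in thymus and 527 to 635 in spleen. Against spleen 3 of the 8 were called higher in iLN, 2 in mLN, where no GIMAP gene was called, and 1 (Izumo1r) in thymus, all by edgeR. In mLN against spleen 3 of the 10 NKT1-like markers were also called lower, Klrk1 (−1.71), Ccl5 (−1.40) and Klrb1c (−0.86). There 2 of the 9 NKT17-like markers tested were called higher, Sdc1 (3.19) and Il1r1 (2.61), all by edgeR. In thymus against spleen, where Gimap7 was 11.2-fold lower, 0 NKT17-like markers were called by edgeR, and of the NKT1-like ones Ccl5 was lower (−2.68) and Klrd1 (2.03) and Klrk1 (1.44) higher. The part of subset makeup in the GIMAP levels was not tested.

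**Figure D5:**
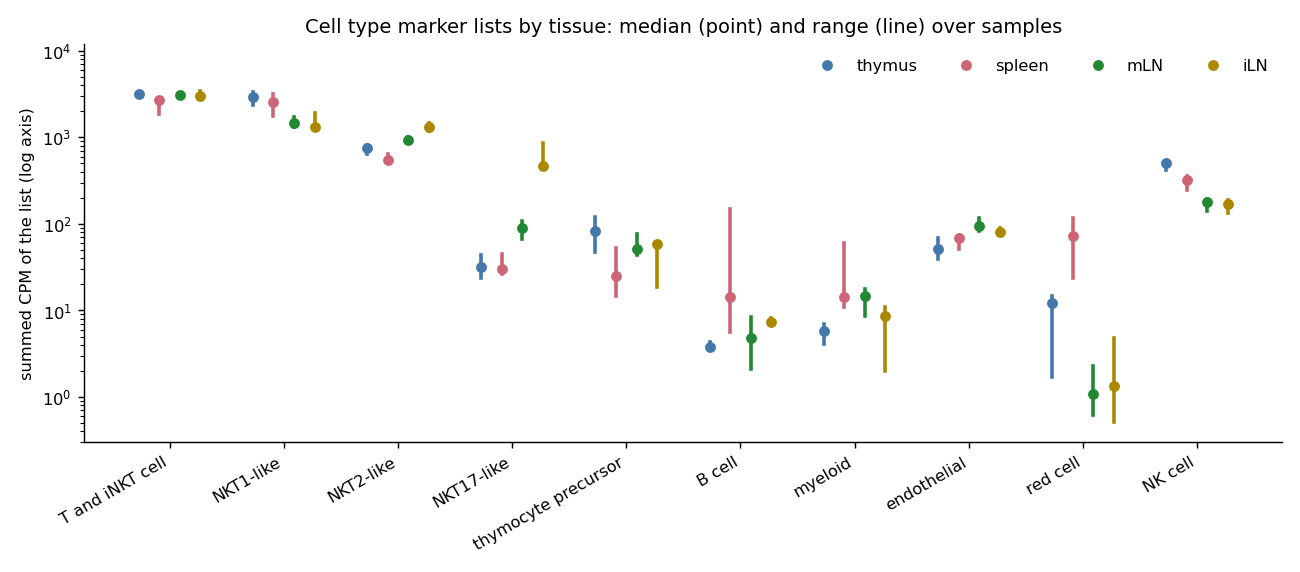
For each list of cell type markers on the x axis (the stromal list, with samples at 0, is left out), points give the median and lines the range over samples of the summed CPM (log axis), coloured by tissue. NKT17-like markers reach 433 to 864 CPM in iLN and at most 108 CPM elsewhere, while the B cell, myeloid and red cell lists stay below 150 CPM in every tissue.

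Markers of cells that the sort should remove summed to less than the T and iNKT cell markers in every sample, but were not absent. B cell markers summed to 5.69 to 147 CPM in spleen and at most 8.32 CPM elsewhere. Myeloid markers summed to 11.0 to 60.2 CPM in spleen and at most 17.9 CPM elsewhere. Both spleen maxima, 147 and 60.2 CPM, were those of spleen replicate 1. Stromal markers summed to at most 0.275 CPM in any sample, with Pdgfrb, Pdgfra, Col1a1, Col1a2, Dcn and Lum all at 0 in mLN. Red cell markers summed to 24.0 to 117 CPM in spleen, 1.71 to 14.7 in thymus, 0.624 to 2.31 in mLN and 0.513 to 4.84 CPM in iLN, with the beta globin Hbb-bs called lower than in spleen in both lymph nodes by edgeR. Thymocyte precursor markers summed to 47.1 to 122 CPM in thymus, 14.8 to 53.4 in spleen, 43.8 to 75.7 in mLN and 18.6 to 61.7 in iLN, so that mLN and iLN overlapped thymus. Most of the sum was Egr2, a gene that T cell receptor signals induce, at 49.5 ± 27.2 CPM in thymus (SD, n = 4), 15.4 ± 6.69 in spleen (n = 4), 46.7 ± 12.8 in mLN (n = 4) and 40.0 ± 24.1 in iLN (n = 3). Of this list Rag1, the recombinase of developing lymphocytes, was called higher in thymus than in spleen (log2 fold change 7.86, edgeR). Endothelial markers, of which 2 of 8 passed the filter, summed to 38.9 to 117 CPM over all samples. NK cell markers, of which 2 of 5 passed, summed to 425 to 517 CPM in thymus and 135 to 188 CPM in iLN, nearly all of it Klrb1c (NK1.1), which is also on the NKT1-like list. The part of these cells in the GIMAP levels was not tested.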

How the data were processed

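Per the labels and the study's methods, RNA of sorted iNKT cells was amplified with an ultralow-input kit and sequenced as paired reads. The submitters' processing notes name cutadapt 1.7.1, Bowtie2 2.2.9, RSEM 1.2.31 and GRCm38. The tables the authors deposited hold, per gene and sample, the expected count (RSEM's estimate, which divides fragments that fit several genes), TPM and the gene length that RSEM estimated for that sample. FPKM, which the authors also deposited in these tables, was not used. The strand setting is not given in the sources used here. Columns of other samples numbered 0.

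Expected counts were rounded and fitted with edgeR 4.0.16 (R 4.3.3): filterByExpr (minimum count 10), TMM, tissue and batch as terms, all 15 samples in one quasi-likelihood fit, robust, with Benjamini-Hochberg adjustment over 13600 genes. A gene was called at an adjusted p under 0.01 and fold over 1.5, the thresholds the study used with DESeq2; DESeq2 1.42.0 was an alternative. The fit was tested on simulated data. Levels are TMM-normalised CPM, and TPM (as deposited) served only for shares within the family, for the order of genes and for the summed level of the family. Gene positions came from GENCODE vM21, matched by gene ID, and sequences from RefSeq.

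All 8 GIMAP genes are named in every comparison; of each list, called genes up to 4 per comparison by size of change were named, the others counted; of the genes beside the cluster, those called; and the 6 genes most alike, save for items that are not reported here. Ccr9, Klrk1 and Rag1 are given by the same rule, and the levels of Tmem176a and Tmem176b were added after their values were seen. The members and lists were chosen with earlier results of these data known.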

Additional observations from a re-analysis of the deposited data

How the results depend on the processing

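All 8 log2 fold changes of thymus against spleen and of iLN against spleen kept their sign under every alternative run, and Gimap7 stayed called in thymus against spleen and in mLN against thymus under all 13 alternatives and without any 1 of the 15 samples. The number of GIMAP genes called moved more. In thymus against spleen (3) it was 5 with DESeq2, 5 with no filter on low counts, 5 with at least 10 counts in every sample, 5 with only the groups compared in the fit, 6 at an adjusted p under 0.05 with no fold threshold, and 1 with no batch covariate, in batch 1 alone and in batch 2 alone. In iLN against spleen (6) it was 3 with only the groups compared, 3 in batch 1 alone and 0 in batch 2 alone. In mLN against thymus (2) it was 1 with no batch covariate, with only the groups compared and in each batch alone. In iLN against thymus (1) it was 2 with DESeq2, with no filter and at the looser threshold, and 0 with no batch covariate, with only the groups compared and in each batch alone. In iLN against mLN (4) it was 2 with no batch covariate, 1 with only the groups compared, 1 in batch 1 alone and 0 in batch 2 alone. For both lymph nodes against spleen and thymus (0) it was 1 with DESeq2, with no filter and with all libraries thinned to the smallest, and 2 at the looser threshold, and over the 4 tissues together (5) it was 2 in batch 1 and 1 in batch 2 alone. The fits in single batches or in the compared groups alone use fewer samples; the cause of the other moves was not tested. With 1 sample left out the count ranged from 1 (without thymus replicate 1 or 3 or spleen replicate 2 or 4) to 4 (without mLN replicate 1 or iLN replicate 4) in thymus against spleen, 0 to 0 in mLN against spleen, 4 to 6 in iLN against spleen, 1 to 2 in mLN against thymus, 0 to 1 in iLN against thymus, 3 to 4 in iLN against mLN, 0 to 2 (without mLN replicate 1) for the lymph nodes against spleen and thymus, and 4 to 6 over the 4 tissues.

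Changes near 0 reversed in sign. For Gimap6 in mLN against spleen (0.00) the log2 fold change was -0.0417 with at least 10 counts in every sample, -0.00817 with no batch covariate, -0.00467 with the replicate block, -0.00237 with only the groups compared, -0.0656 with thinned libraries, -0.11 in batch 1 alone, -0.00479 with rRNA genes removed, and -0.14 to 0.0542 with 1 sample left out. For Gimap7 in the lymph nodes against spleen and thymus (0.04) it was -0.030 with no batch covariate, -0.032 with the replicate block, -0.11 with thinned libraries, -0.45 in batch 1 alone, and -0.11 to 0.17 with 1 sample left out. For Gimap5 in mLN against thymus (-0.03) it was 0.0220 with thinned libraries, 0.18 in batch 2 alone, and -0.32 to 0.11 with 1 sample left out. For Gimap1 in iLN against thymus (0.09) it was -0.0621 in batch 2 alone and -0.14 to 0.19 with 1 sample left out, and for Gimap9 in mLN against spleen (-0.09) it was -0.36 to 0.18 with 1 sample left out. With the replicate block in place of batch 2 members were called in thymus against spleen, where Gimap4 had an adjusted p of 0.0114 in edgeR, and the counts in the other comparisons were those of the fit with batch. The sources do not say whether the replicate numbers pair samples, although the paper used a paired t-test between tissues on clonotypes from its RNAseq samples. The deviations of samples with the same number correlated by 0.122 on average over 21 pairs, with 14 over 0.1. For other numbers of the same batch the average was 0.107, and 13 of 15 samples correlated best with a sample of their own number. The number of all genes called ranged over the alternatives from 27 to 393 in thymus against spleen (179), 4 to 550 in iLN against spleen (211), 0 to 273 in mLN against spleen (89), 31 to 435 in mLN against thymus (217), 7 to 480 in iLN against thymus (204) and 3 to 279 in iLN against mLN (64), lowest in single batches. The median of all genes moved by over 0.1 in iLN against spleen with no filter (to -0.12) and in batch 2 alone (to -0.13). Depth limits Gimap7 in thymus, with as few as 13 expected counts, and with 3 or 4 samples a tissue and 2 batches small changes of the scarce members were not resolved.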
